A study of Mus musculus with 1505 samples.

Results

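The 9 genes described here, Cux1, Cux2, Rorb, Fezf2, Bcl11b, Tbr1, Foxp2, Tle4 and Etv1, encode transcription factors and 1 co-repressor that are used as markers of layer and projection class in the cerebral cortex. They were taken by name from the 42381 genes of the exonic count table, and all 9 were found. Their levels were compared across the excitatory t-types (transcriptomic cell types) with 5 or more cells, which are 14 of 27 t-types and 384 of 413 excitatory cells. The Pvalb, Sst, Vip and Lamp5 families of inhibitory neurons (802 cells) served as reference.

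The cells came from primary motor cortex and were measured by Patch-seq, in which the RNA of a neuron is drawn into the recording pipette. The mice were adults of both sexes, either wild-type C57Bl/6 or Cre/Ai9 animals in which Cre, driven by Viaat, Sst, Vip, Pvalb, Npy, Vipr2, Slc17a8 or Gnb4, switches on a red reporter. The labels tie no cell to a mouse, line, age or sex. The main data are cells recorded at room temperature. Another 55 excitatory cells, from Sst-Cre/Ai9 and Pvalb-Cre/Ai9 mice, were recorded at physiological temperature and are described at the end. These recordings were made with kynurenic acid and picrotoxin, which block fast glutamate and GABA transmission. In the excitatory families, 248 cells were intratelencephalic (IT, 8 t-types), 40 were extratelencephalic (ET, labelled PT, 2 t-types), 81 were corticothalamic (CT, 2 t-types) and 15 were L6b cells (2 t-types). Because no animal is named, each t-type was treated as 1 sample, and no test was run. Levels are CPM, that is, counts scaled to a common total per group, of the exonic counts summed over the cells of a group, with exact Poisson intervals (95%) that cover counting error only. Medians and ranges over cells describe the spread. The authors assigned the t-types from the same RNA, so a level by t-type was in part used to make its label.

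IT neurons project within the cortex and to the striatum, ET neurons to the brainstem and spinal cord, CT neurons to the thalamus, and L6b cells lie at the border with the white matter. During development, Fezf2 and Bcl11b promote the subcerebral fate of deep-layer neurons, Tbr1 promotes corticothalamic identity, and the Cux genes are used as markers of upper layers. Many of these genes stay active in the adult cortex, where they help to identify the classes.

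The excitatory cells had a median of 1123136 exonic counts (range 9361 to 18172944), and the summed depth ranged from 9212130 counts in L5 IT_2 to 130089552 in L5 IT_1. A single cell held 57.2% of the counts of L5 IT_2 and 45.5% of those of L5 IT_3. The date in a cell's title moved with the family. With the last calendar year of the dates called the later period and all before it the earlier one, 163 of 248 IT cells and 37 of 40 ET cells were of the earlier period, against 1 of 81 CT cells and 1 of 15 L6b cells. Summed ET markers were at 269 CPM in ET and 43.7 in IT cells, CT markers at 827 CPM in CT cells, and L6b markers at 806 CPM in L6b cells. CT markers were not particular to CT cells, with 487 CPM in L6b and 417 in L6 IT_1 cells, and in L6b Col6a1 they (798 CPM) exceeded the L6b markers (413 CPM). The L6 IT_1 sum was mostly Sulf1 (350 CPM, against 65.4 in CT cells), and Ntsr1 was also higher there (61.7 against 9.45). The other CT markers went the other way: Syt6 and Rprm had no read in L6 IT_1 (237 and 452 CPM in CT cells), and Hs3st4 was at 5.2 against 63.1 CPM. Inhibitory markers summed to 30.9 to 51.8 CPM in the excitatory families, against 3377 to 10717 in the inhibitory ones. Microglia markers summed to 944 CPM in IT, 830.3 in ET, 316 in CT and 182 in L6b cells, and those of oligodendrocytes to 738, 1731, 1443 and 1039 CPM. All 8 microglia markers had reads in each of these families, and the part of these transcripts in the results was not tested. One cell stood apart from its t-type: L6b Col6a1 replicate 1 had 837 CPM of Rorb, 528 of Etv1 and 119 of Cux2, where the other 9 cells had at most 2.09 CPM of Rorb and no read of Etv1 or Cux2. Values for L6b are therefore also given without it.

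The genes lie apart from each other in the mouse genome (GENCODE M21, GRCm38). Cux1 spans 136248135 to 136567490 and Cux2 121856366 to 122050102 on chromosome 5. Rorb (18930605 to 19111196) and Tle4 (14448150 to 14598051) lie on chromosome 19, and Bcl11b (107910403 to 108003602) and Etv1 (38779380 to 38870484) on chromosome 12. Fezf2 spans 12342094 to 12348189 on chromosome 14, Tbr1 61802930 to 61814114 on chromosome 2, and Foxp2 14901349 to 15441977 on chromosome 6. Fezf2 (6096 bases) and Tbr1 (11185 bases) are short genes, whereas the other members span 91105 to 540629 bases. Their exons add up to 3047 bases in Fezf2 and 20024 in Cux1, so levels of different genes are compared per kb of exon. Cux1 shares 394 exonic bases with the antisense gene Gm16599, whose reads cannot be told apart without strand information.

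Promoters are shown for both pairs of members that label opposite classes, Cux1 and Cux2 in upper-layer IT cells and Fezf2 and Bcl11b in ET cells. Each runs from 250 bases before to 50 after a start site in RefSeq (GRCm38.p6), 5′ to 3′ on the gene's strand, and capitals mark a TATA box (TATAAA, searched on both strands). Cux2 has a pair of start sites.
Cux1 promoter, chr5:136565932-136566231, minus strand: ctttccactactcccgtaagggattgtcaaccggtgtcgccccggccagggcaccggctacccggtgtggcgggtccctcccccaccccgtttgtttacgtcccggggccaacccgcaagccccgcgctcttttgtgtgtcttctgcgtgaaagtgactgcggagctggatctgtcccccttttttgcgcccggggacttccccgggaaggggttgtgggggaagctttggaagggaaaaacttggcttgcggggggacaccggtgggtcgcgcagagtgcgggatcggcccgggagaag
Cux2 promoter, first start, chr5:122049802-122050101, minus strand: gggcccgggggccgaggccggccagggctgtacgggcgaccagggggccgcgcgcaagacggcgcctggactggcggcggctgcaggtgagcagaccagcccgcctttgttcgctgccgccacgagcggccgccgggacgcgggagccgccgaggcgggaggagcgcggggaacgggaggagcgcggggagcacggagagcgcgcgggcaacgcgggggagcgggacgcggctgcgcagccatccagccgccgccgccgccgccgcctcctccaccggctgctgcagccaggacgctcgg
Cux2 promoter, second start, chr5:122047776-122048075, minus strand: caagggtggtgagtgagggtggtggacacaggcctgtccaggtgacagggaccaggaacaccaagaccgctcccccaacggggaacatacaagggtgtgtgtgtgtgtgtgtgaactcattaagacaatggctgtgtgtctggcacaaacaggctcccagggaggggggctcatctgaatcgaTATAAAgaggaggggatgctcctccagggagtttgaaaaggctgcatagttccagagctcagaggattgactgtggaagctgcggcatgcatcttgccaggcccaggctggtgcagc
Fezf2 promoter, chr14:12345816-12346115, minus strand: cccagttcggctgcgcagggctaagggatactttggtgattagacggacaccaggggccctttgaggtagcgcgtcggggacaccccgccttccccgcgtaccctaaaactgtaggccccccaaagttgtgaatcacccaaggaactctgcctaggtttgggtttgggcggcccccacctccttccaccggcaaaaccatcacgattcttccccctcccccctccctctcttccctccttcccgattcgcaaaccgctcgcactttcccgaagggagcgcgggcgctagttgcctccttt
Bcl11b promoter, chr12:108003365-108003664, minus strand: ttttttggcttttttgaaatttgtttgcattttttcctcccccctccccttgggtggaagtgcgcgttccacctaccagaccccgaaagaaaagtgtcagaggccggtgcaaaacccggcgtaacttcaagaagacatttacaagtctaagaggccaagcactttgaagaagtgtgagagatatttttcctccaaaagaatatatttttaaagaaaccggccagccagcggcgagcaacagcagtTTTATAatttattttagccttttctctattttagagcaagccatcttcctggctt
The letters TATAAA occur in 13.6% of 32851 promoters of this length, and among the members in the second promoters of Cux2 and Etv1 and in that of Bcl11b, where, as for Etv1, it lies on the opposite strand and reads TTTATA. The first Cux2 promoter had 80.3% G and C and 48 CpG dinucleotides and the second 56.7% and 4, against medians of 52.7% and 7 over all promoters. Fezf2 had 61.3% and 20, Cux1 65% and 25, and Bcl11b 43% and 9. Of the 9 members, 8 had a promoter in the table. Another 4 motifs were searched in the same way: CCAAT (in 37.4% of all promoters) occurred in those of Tbr1, Rorb and Tle4, and the T-box half-site GGTGTGA (3.98%), the ETS site CCGGAAGT (3.89%) and the nuclear receptor half-site AGGTCA (16.3%) in none of the members' promoters.

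Each gene had its own profile over the 14 t-types, and the profiles overlapped in part. Cux1, Cux2 and Rorb were highest in IT cells of layers 2 to 5, and Fezf2 and Bcl11b in ET cells. Foxp2 and Tle4 were highest in CT and L6b cells. Etv1 was high both in ET cells and in the IT t-types L4/5 IT_2 and L5 IT_1. Tbr1 was present in IT, CT and L6b cells and low in ET cells. Neighbours in the order of levels mostly overlapped: for Cux2, Rorb, Bcl11b, Tbr1, Foxp2 and Tle4, the interquartile ranges over cells overlapped in each of 13 neighbouring pairs of t-types, and for Cux1, Fezf2 and Etv1 they were separate in 1, 2 and 3 of 13. Among the Etv1 pairs, L6 CT Cpa6 was above L5 IT_2 by sum (41.7 against 32.6 CPM) but below it by cell median (0 against 6.37). A single cell held 50.2% of the Etv1 reads of L6 CT Cpa6, and without it the level was 21.7 CPM.

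**Figure D1:**
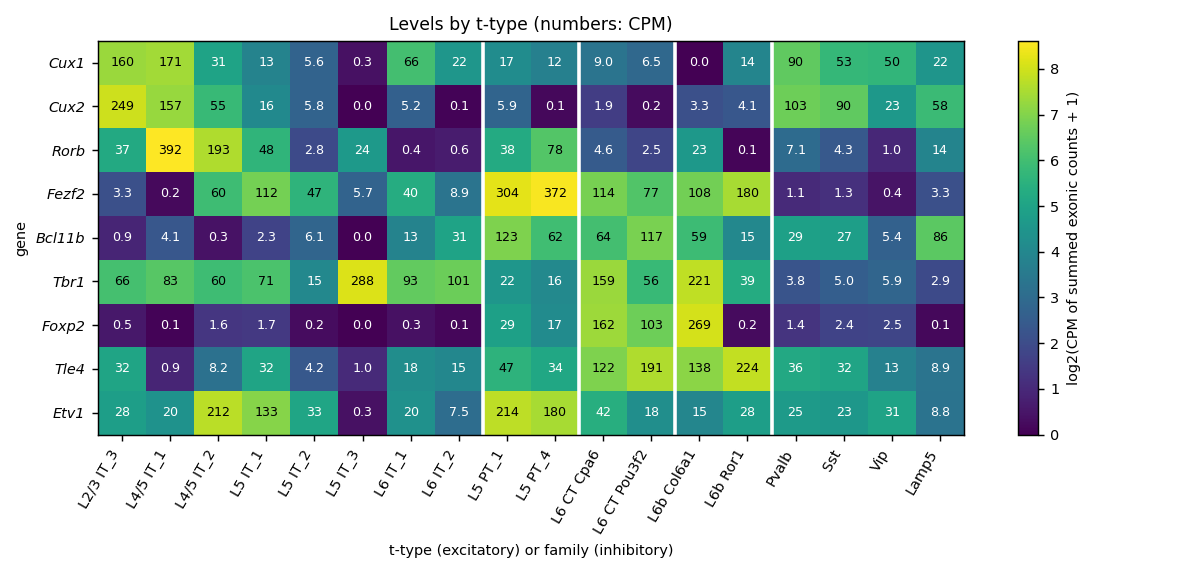
Levels of the 9 genes (rows) in the 14 excitatory t-types and 4 inhibitory families (columns); colour gives log2(CPM of summed exonic counts + 1), numbers give CPM, and white lines separate the IT, ET, CT, L6b and inhibitory groups. Cux2 reached 249 CPM in L2/3 IT_3, Rorb 392 in L4/5 IT_1, Fezf2 372 in L5 PT_4 and Foxp2 269 in L6b Col6a1.

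Cux2, a homeobox factor of upper-layer neurons, was highest in L2/3 IT_3, at 249 CPM (246 to 253). Its 86 cells ranged from 0 to 3449 CPM, with a median of 216. The level stepped down to 157 CPM in L4/5 IT_1 (cell median 121), 54.7 in L4/5 IT_2 (median 17) and 16 in L5 IT_1 (median 0). In L5 IT_1, 11 of 61 cells had a read, and 1 cell held 68.6% of them, without which the level was 5.52 CPM. In L6 IT_2 only 3 of 44237176 counts were from Cux2, and in L6 IT_1 all 70 reads came from replicate 8, without which the level was 0. Among the other excitatory t-types, the highest level was 5.91 CPM in L5 PT_1. Inhibitory cells also carried Cux2, with 103 CPM in Pvalb, 89.5 in Sst, 57.8 in Lamp5 and 23 in Vip cells, and 88.6% of thinned Pvalb cells had a read, close to the 91.2% of L2/3 IT_3 (shares are after thinning each cell to 200000 exonic counts).

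Cux1, the paralogue of Cux2, followed it in the upper layers but not below. It was 171 CPM (167 to 175) in L4/5 IT_1 and 160.1 (158 to 163) in L2/3 IT_3, with cell medians of 154 and 133 and cells from 0 to 565 and from 0 to 1013 CPM. Their order was not stable: the interquartile ranges overlapped, and L2/3 IT_3 was the higher when title dates were averaged (146 against 140.2 CPM), among cells of the later period (227 against 169 CPM) and in intronic reads (381 against 351 CPM). The next level, 65.5 CPM in L6 IT_1, rested on few cells, since 6 of 10 had no read, the median was 0, and 1 cell held 85.6% of the reads. Cux1 stayed measurable in ET (15.9 CPM) and CT cells (8.48 CPM), and L6b Col6a1 had no exonic read in 13337833 counts, although 463 intronic reads were counted there. Inhibitory families ranged from 21.5 CPM (Lamp5) to 89.7 CPM (Pvalb).

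Rorb, a nuclear receptor and marker of layer 4, was 392 CPM (386 to 399) in L4/5 IT_1, where the 22 cells ranged from 0 to 1545 CPM around a median of 232. A single cell held 40.8% of these reads. L4/5 IT_2 followed at 193 CPM (189 to 196), with cells from 0 to 750.4 CPM and a median of 196. L5 PT_4 came next with 78 CPM, but 94.6% of its reads came from 1 cell and the median was 0. L5 IT_1 had 48.4, L5 PT_1 37.9 and L2/3 IT_3 36.7 CPM. In L6 IT_1 and L6 IT_2 Rorb was at 0.446 and 0.565 CPM, and in the inhibitory families at 0.955 to 13.7 CPM.

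Cux1, Cux2 and Rorb met in the same cells of layer 4/5. All 3 had a read in 13 of 21 thinned L4/5 IT_1 cells (61.9%, exact binomial interval 38.4 to 81.9), in 10 of 31 L4/5 IT_2 cells (32.3%, 16.7 to 51.4), in 21 of 80 L2/3 IT_3 cells (26.2%, 17 to 37.3) and in 3 of 59 L5 IT_1 cells (5.08%, 1.06 to 14.1). No CT cell of 80 had all 3, which allows a share of up to 4.51%. Inhibitory cells also held all 3, in 30 of 273 Pvalb (11%, 7.54 to 15.3) and 19 of 237 Sst cells (8.02%, 4.9 to 12.2). Singly, Cux1, Cux2 and Rorb had a read in 16, 19 and 19 of the 21 L4/5 IT_1 cells. Whether they met there more often than these single shares give was not tested. Over the 14 t-types, log2(CPM + 1) of Cux1 and Cux2 had a Pearson correlation of 0.70, given as a description over 14 points.

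Fezf2, a zinc finger factor needed for subcerebral projection neurons, had a read in every ET cell. In the 31 L5 PT_1 cells it ranged from 17.4 to 905 CPM with a median of 219, and the sum gave 304 CPM (300.5 to 309). In the 9 L5 PT_4 cells it ranged from 60.8 to 1223 CPM with a median of 327, and the sum gave 372 CPM (366 to 379). After thinning, 36 of 36 ET cells (lower bound 90.3%) had a read, against 52 of 80 CT cells (65%), 79 of 235 IT cells (33.6%) and 2 of 149 Vip cells (1.34%). The IT share was uneven: 47 of 59 L5 IT_1 cells (79.7%) and 19 of 31 L4/5 IT_2 cells (61.3%) had a read, against 5 of 80 in L2/3 IT_3 (6.25%) and 1 of 25 in L6 IT_2 (4%). L5 IT_1 reached 112 CPM (median 124), as much as L6 CT Cpa6 with 114 CPM (median 72.9). The level of 179.9 CPM in L6b Ror1 rested on replicate 2, since its 5 cells had 0, 917, 11.3, 0 and 19.3 CPM, and without that cell the sum gave 8.41 CPM.

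Bcl11b, also called Ctip2, is a zinc finger factor that acts with Fezf2 in corticospinal neurons. It was 123 CPM (121 to 126) in L5 PT_1, with cells from 0 to 483 CPM and a median of 95.9, and 61.6 CPM (58.9 to 64.5) in L5 PT_4, with cells from 0 to 284 CPM and a median of 61. L6 CT Pou3f2 had 117 CPM, but 75.2% of its reads came from 1 cell and the median was 0.156 CPM. L6 CT Cpa6 had 64.2 CPM (median 9.25). Within IT cells Bcl11b was found chiefly in layer 6, with 31.2 CPM in L6 IT_2, where 16 of 25 thinned cells (64%) had a read, against 0.336 to 6.08 CPM in the other IT t-types except L6 IT_1 (13.4) and L5 IT_3 (no read). Lamp5 cells, which are inhibitory, had 85.9 CPM and a read in 62.2% of thinned cells, more than CT cells (76 CPM, 48.8%).

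Etv1, an ETS factor known as Er81 and a marker of layer 5, was at 214 CPM (210.3 to 217) in L5 PT_1, 212 (209 to 216) in L4/5 IT_2, 179.7 (175 to 185) in L5 PT_4 and 133 (131 to 135) in L5 IT_1. The cell medians were 115, 147, 65.4 and 71 CPM, so the order by median differed from the order by sum. Without the cell with most Etv1 reads in each, the sums gave 184, 150.4, 94.7 and 124 CPM. In L5 PT_4 that cell held 55.7% of the reads. The interquartile range of L5 IT_1 did not overlap that of L6 CT Cpa6, the next in order at 41.7 CPM and with a median of 0. Only 4 of 21 thinned L4/5 IT_1 cells had an Etv1 read (19%, 5.45 to 41.9), against 22 of 31 L4/5 IT_2 cells (71%, 52 to 85.8). In ET cells the share was 33 of 36 (91.7%, 77.5 to 98.2).

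Fezf2, Bcl11b and Etv1 occurred together in 27 of 36 ET cells (75%, 57.8 to 87.9), in 7 of 80 CT cells (8.75%, 3.59 to 17.2) and in 8 of 235 IT cells (3.4%, 1.48 to 6.6), of which 5 were L5 IT_1. Per kb of exon, the ET family had 106 CPM of Fezf2, 15.3 of Etv1 and 13 of Bcl11b, so the Fezf2 level stood above the other members in these cells. Bcl11b had a read in 30 of the 36 ET cells (83.3%, 67.2 to 93.6).

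**Figure D2:**
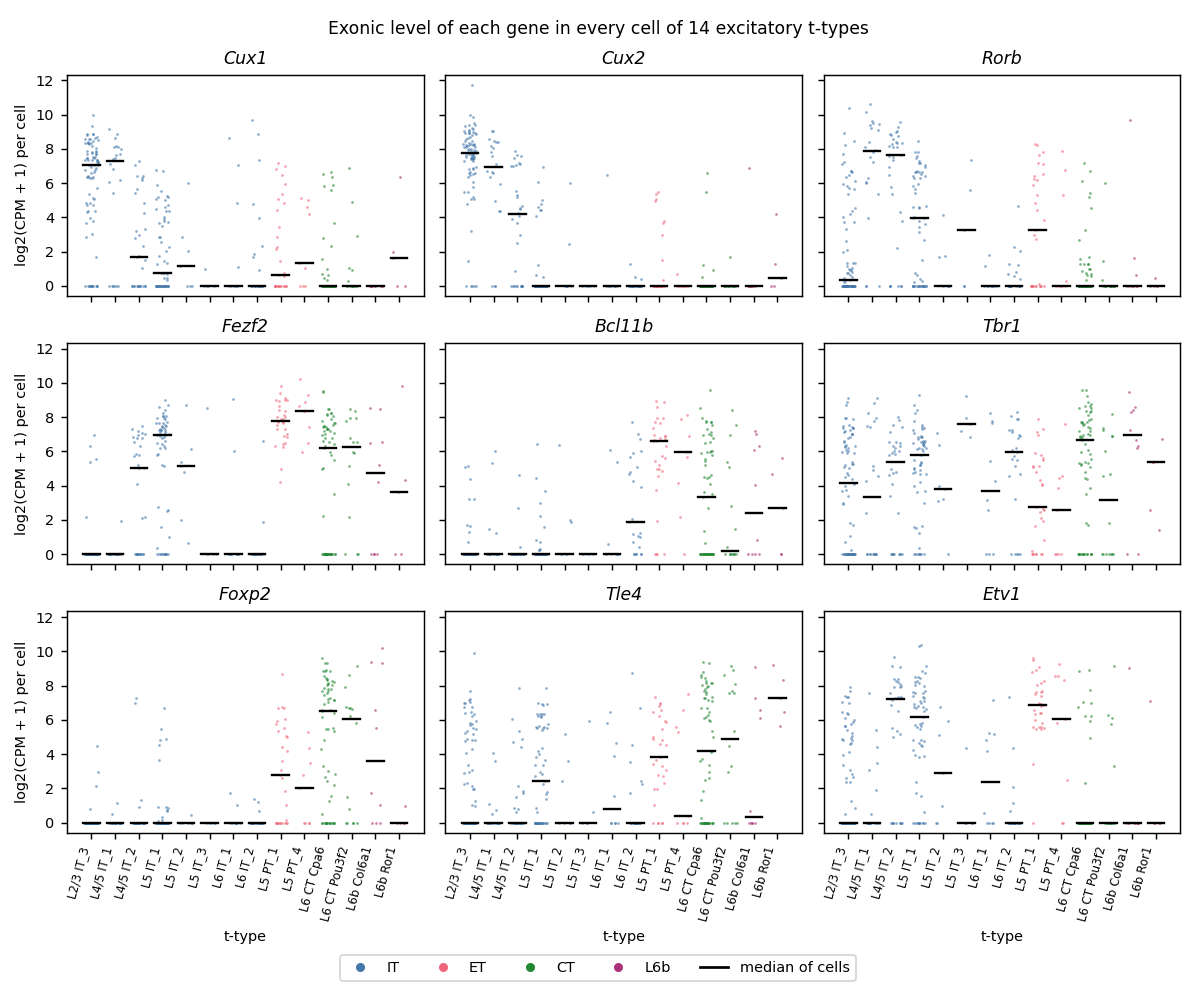
Log2(CPM + 1) of each gene in every cell of the 14 excitatory t-types (1 point per cell, coloured by family, black lines at the median of the cells). Fezf2 was above 0 in all 40 ET cells, whereas Foxp2 had a median of 91.9 CPM in L6 CT Cpa6 and of 0 in the 8 IT t-types.

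Foxp2, a forkhead factor of deep layers, was abundant in CT and L6b Col6a1 cells and nearly missing from IT cells. L6 CT Cpa6 had 162 CPM (159 to 164), with 65 cells from 0 to 785 CPM and a median of 91.9, and L6 CT Pou3f2 had 103 CPM (99.8 to 107), with a median of 65. The IT family had 0.92 CPM, and 12 of 235 thinned IT cells (5.11%, 2.67 to 8.75) had a read, close to the 7.38% of Vip cells. ET cells were in between, with 25.6 CPM and a read in 19 of 36 cells (52.8%, 35.5 to 69.6). The L6b t-types were far apart. L6b Col6a1 reached 269 CPM (260.1 to 278), or 243 without replicate 1 and 173 without replicate 8, which held 48.1% of the reads. Its 10 cells ranged from 0 to 1176 CPM with a median of 24. In L6b Ror1, 4 of the 5 cells had no read and replicate 2 had 0.963 CPM. The marker genes moved with this difference: CT markers summed to 798 CPM in L6b Col6a1 and 109 in L6b Ror1, and L6b markers to 413 and 1284 CPM. Their part in it was not tested.

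Tle4, a Groucho-type co-repressor with no DNA-binding domain of its own, was highest in L6b Ror1 at 224 CPM (215 to 233). Its 5 cells had 48.1, 154, 86.8, 599.8 and 315 CPM, all above 0. L6 CT Pou3f2 followed at 191 CPM, with 53.3% of reads in 1 cell and a median of 30.2, then L6b Col6a1 at 138 CPM (median 0.303; 40.1 without replicate 8, which held 76.6% of the reads) and L6 CT Cpa6 at 122 CPM (median 17.5). Tle4 was not confined to layer 6, since ET cells had 43.3 CPM and 75% of them a read after thinning, and Pvalb and Sst cells had 36 and 31.7 CPM. L4/5 IT_1 was lowest at 0.868 CPM.

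Tbr1, a T-box factor of early-born deep-layer neurons, was broad among excitatory cells. It was highest in L5 IT_3, at 288 CPM (277 to 299), whose 5 cells had 112, 192, 248, 146 and 607 CPM, so that none was without it. Replicate 5 held 67.1% of these reads, and without it the level was 139 CPM, below those of L6b Col6a1 and L6 CT Cpa6. L6b Col6a1 had 221 CPM (median 125), L6 CT Cpa6 159 (median 102), and L6 IT_2 101 (median 60.8). The other IT t-types ranged from 60.2 to 93.3 CPM, apart from L5 IT_2 with 15.3. L5 PT_1 and L5 PT_4 had 22.2 and 15.8 CPM (3.66 in L5 PT_4 without replicate 7, which held 78.3% of the reads), although 24 of 36 thinned ET cells (66.7%, 49 to 81.4) had a read, a share near that of IT cells (70.2%, 63.9 to 76). Inhibitory families were at 2.85 to 5.94 CPM, with 6.59% to 9.7% of thinned cells showing a read.

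Tbr1, Foxp2 and Tle4 were found together in 33 of 80 CT cells (41.2%, 30.4 to 52.8), in 10 of 36 ET cells (27.8%, 14.2 to 45.2), in 4 of 15 L6b cells (26.7%, 7.79 to 55.1) and in 2 of 235 IT cells (0.851%, 0.103 to 3.04). The intervals of CT and ET cells overlapped. No thinned cell of any group held a read of all 9 genes. The median number of members with a read was 6 in ET, 4 in IT, CT and L6b, 3 in Pvalb, 2 in Sst and Lamp5, and 1 in Vip cells.

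Families were then compared for what distinguishes projection classes. A member counts as higher or lower when it differs at least 2-fold on the log2(CPM + 1) scale, and the share of all 12458 genes with a mean of at least 5 CPM over the 8 families that pass the same threshold is given as background. All 9 members passed this filter. The comparisons share groups, so their counts are not independent of each other, and no test stands behind them.

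Against IT cells, ET cells had 4 of 9 members at least 2-fold higher (8.4% of all genes) and 3 at least 2-fold lower (12.5% of all genes). Bcl11b was 105 against 5.42 CPM, a log2 ratio of 4.05 (3.97 to 4.13). Foxp2 was 25.6 against 0.92 CPM (3.79, 3.67 to 3.92), Fezf2 324 against 49.2 CPM (2.70, 2.66 to 2.73) and Etv1 204 against 84.1 CPM (1.27). The lower members were Cux2, with 4.23 against 90.7 CPM (-4.13), Cux1, with 15.9 against 69.5 CPM (-2.06), and Tbr1, with 20.4 against 77.3 CPM (-1.87). Tle4 (0.95) and Rorb (-0.81) stayed within 2-fold. A single cell held 43.3% of the ET reads of Rorb, and without it the ET level was 30.9 CPM. Without the deepest cell of each t-type, 5 members were higher and 4 lower, and with median-of-ratios scaling 5 and 3. The members' median was 0.95, against -0.09 over all genes. On the 20 title dates that held cells of both families, Fezf2 was higher in ET on 18, Bcl11b on 18 and Foxp2 on 14, Cux2 was lower on 16 and equal on 4, and Tbr1 was lower on 17. Etv1 was higher on 13 and lower on 7 of these dates, and within cells of the earlier period its log2 ratio of 0.80 was under the threshold. Within the later period, which holds 3 ET cells, that of Foxp2 was 0.74. Intronic reads gave Tbr1 the opposite sign, with a log2 ratio of 0.63 from 889 ET and 1707 IT intronic reads.

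Against IT cells, CT cells had 4 members at least 2-fold higher (4.67% of all genes) and 4 at least 2-fold lower (16.8% of all genes). Foxp2 differed most, with 149 against 0.92 CPM and a log2 ratio of 6.28 (6.19 to 6.37). Bcl11b was 76 against 5.42 CPM (3.58), Tle4 138 against 22 CPM (2.59) and Fezf2 106 against 49.2 CPM (1.09, 1.04 to 1.13). Cux2 was 1.55 against 90.7 CPM (-5.17), Rorb 4.1 against 87.8 CPM (-4.12), Cux1 8.48 against 69.5 CPM (-2.89) and Etv1 36.4 against 84.1 CPM (-1.18). Tbr1 was under the threshold, with 136 against 77.3 CPM (0.81, 0.77 to 0.84). All genes had a median of -0.13, and the members one of 0.81. Median-of-ratios scaling moved the median of all genes up by 0.19, and the share of genes past the threshold that were higher in CT from 21.7% to 35.6%. Among cells of the later period, which hold 80 CT and 85 IT cells, Foxp2 (6.84), Tle4 (4.05), Fezf2 (2.94), Bcl11b (2.82), Cux1 (-3.19), Cux2 (-4.80) and Rorb (-4.53) stayed past 2-fold, and Etv1 did not (-0.51). On the 26 title dates with cells of both, Foxp2 was higher in CT on 22 and lower on 0, and Tle4 higher on 18 and lower on 2, whereas Rorb was higher on 9 and lower on 11.

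**Figure D3:**
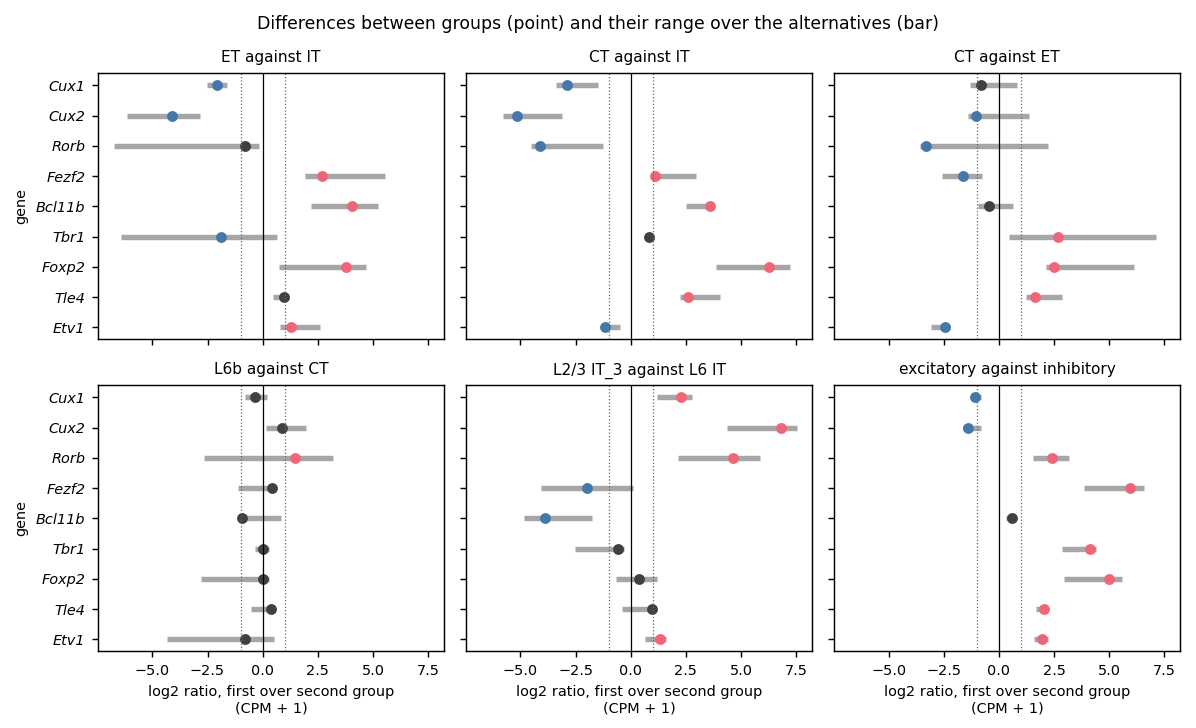
Log2 ratio of CPM + 1 (first over second group named) for the 9 genes in 6 comparisons; points are the reported values (red at least 2-fold higher, blue at least 2-fold lower, dark in between), grey bars the range over the alternative settings, and dotted lines 2-fold. Foxp2 in CT against IT was at 6.28, and the bar of Rorb in L6b against CT crossed 0.

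CT and ET cells, both of which project below the cortex, differed in most members: 3 were at least 2-fold higher in CT (14.7% of all genes) and 4 at least 2-fold lower (20.4% of all genes). Tbr1 was 136 against 20.4 CPM (2.68, 2.60 to 2.76), Foxp2 149 against 25.6 CPM (2.49, 2.42 to 2.57) and Tle4 138 against 43.3 CPM (1.65, 1.58 to 1.71). Rorb was 4.1 against 49.6 CPM (-3.31), Etv1 36.4 against 204 CPM (-2.45), Fezf2 106 against 324 CPM (-1.61) and Cux2 1.55 against 4.23 CPM (-1.04). Both Cux2 levels are low, and 84.9% of its CT reads came from 1 cell, without which the CT level was 0.238 CPM. Its ratio was under 2-fold when title dates (-0.68) or cells (-0.99) were averaged, with median-of-ratios scaling (-0.94) and with a pseudocount of 10 CPM (-0.30). Bcl11b (-0.47) and Cux1 (-0.83) were within 2-fold. Intronic reads put Tbr1 (0.44) and Fezf2 (-0.75) within 2-fold as well. With 1 CT cell in the earlier period, 3 ET cells in the later one and no shared title date, class and period cannot be told apart here. In the later cells, Rorb and Cux2 had the opposite sign (2.22 and 1.36).

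In sums over cells, L6b against CT had 1 member at least 2-fold higher (18.6% of all genes) and 0 at least 2-fold lower (20.5% of all genes). Tbr1 (139 against 136 CPM), Foxp2 (147 against 149 CPM), Tle4 (177 against 138 CPM) and Fezf2 (141 against 106 CPM) had log2 ratios of 0.03, -0.01, 0.36 and 0.41. The single cells did not follow the Foxp2 sums, as the median was 0.963 CPM in L6b and 82.6 in CT cells, and on the 6 title dates with both Foxp2 was lower in L6b on 5 and equal on 1. Of the L6b reads of Fezf2, 55.6% came from L6b Ror1 replicate 2, and without this cell, a choice made after seeing the data, its level was 68.4 CPM and its log2 ratio -0.62. The member past 2-fold was Rorb (12.9 against 4.1 CPM, 1.44), and 98.7% of its L6b reads came from L6b Col6a1 replicate 1. Without this cell Rorb had a log2 ratio of -2.13 and Etv1 one of -1.46 (from -0.80), so 2 members were then at least 2-fold lower and none higher. Intronic reads gave Foxp2 a log2 ratio of -2.78. The near-equal exonic Foxp2 sums of L6b and CT average the unlike L6b Col6a1 and L6b Ror1 cells described above.

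Within the IT family, the shallowest and the deepest cells were opposed. L2/3 IT_3 had 4 members at least 2-fold higher than L6 IT (11.7% of all genes) and 2 at least 2-fold lower (8.29% of all genes). Cux2 was 249 against 1.27 CPM (6.79, 6.58 to 6.99), Rorb 36.7 against 0.537 CPM (4.62, 4.37 to 4.83), Cux1 160.1 against 32.3 CPM (2.28, 2.19 to 2.36) and Etv1 27.5 against 10.3 CPM (1.33, 1.17 to 1.49). The Etv1 value was under 2-fold when cells (0.92) or title dates (0.74) were averaged, after thinning (0.95) and in intronic reads (0.63). Bcl11b was 0.862 against 27.1 CPM (-3.91, -4.12 to -3.70) and Fezf2 3.31 against 16.1 CPM (-1.99, -2.19 to -1.78). The Fezf2 value rests on few cells, because 5 of 80 thinned L2/3 IT_3 cells and 3 of 35 L6 IT cells had a read, and intronic reads gave a log2 ratio of 0.10. Bcl11b had a read in 7 of 80 and in 18 of 35 cells. All 35 L6 IT cells were of the later period, against 13 of 86 L2/3 IT_3 cells, and among cells of that period Cux2 (6.40), Rorb (4.29), Cux1 (2.78) and Bcl11b (-4.71) kept their direction.

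Over the families as a whole, excitatory cells had 6 members at least 2-fold higher than inhibitory cells (9.13% of all genes), taking the mean over 4 families on each side, and 2 at least 2-fold lower (8.1% of all genes). Fezf2 was 155 against 1.51 CPM (5.96), Foxp2 80.6 against 1.61 CPM (4.97) and Tbr1 93.1 against 4.39 CPM (4.13). Rorb (2.40), Tle4 (2.04) and Etv1 (1.93) differed less. Cux2 was 25 against 68.2 CPM (-1.41) and Cux1 25.1 against 53.6 CPM (-1.07). Both lower values were under the threshold when title dates were averaged (-0.97 for Cux1 and -0.81 for Cux2), and Cux1 also when cells were averaged (-0.80). The excitatory mean weighs 15 L6b cells as much as 248 IT cells. IT cells alone had 90.7 CPM of Cux2 and 69.5 of Cux1, above the inhibitory means, whereas ET, CT and L6b cells were below them. The lower values therefore do not hold for IT cells. Bcl11b was within 2-fold (56.5 against 36.9 CPM, 0.60). The inhibitory levels of Cux1, Cux2 and Bcl11b were uneven, as Vip cells had 5.39 CPM of Bcl11b and Lamp5 cells 85.9.

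Intronic reads, a second readout of the same excitatory cells, ordered the t-types much as exonic reads did for some members and less so for others. Spearman correlations over the 14 t-types ranged from 0.543 (Tbr1) and 0.604 (Cux2) to 0.873 (Rorb) and 0.877 (Foxp2). Over the 14 t-types, log2(CPM + 1) of exonic and intronic reads had Pearson correlations of 0.916 for Foxp2, 0.868 for Rorb, 0.843 for Cux2, 0.781 for Fezf2, 0.776 for Cux1, 0.748 for Tle4, 0.742 for Bcl11b, 0.718 for Etv1 and 0.406 for Tbr1, as a description. The intronic share of a gene's reads differed widely. In CT cells it was 80.3% for Foxp2, 76.2% for Tle4, 4.52% for Tbr1 and 4.26% for Fezf2, and the last pair are the shortest genes. Intronic Tle4 reads were also abundant where exonic ones were rare: L4/5 IT_1 had 31 exonic and 2240 intronic reads (0.868 and 99.6 CPM), and L5 IT_3 had 10 and 1373. Over t-types, intronic Tle4 ranged from 81.8 to 920.3 CPM, a narrower range than in exons. Foxp2 reached 1309 intronic CPM in L6 CT Cpa6 and 455 in L6b Col6a1, the reverse of the exonic order. The highest t-type in introns also differed from that in exons for Cux1 (L2/3 IT_3), Bcl11b (L6b Col6a1, 277 CPM), Tle4 (L6 CT Cpa6) and Etv1 (L5 PT_4, 405 CPM).

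**Figure D4:**
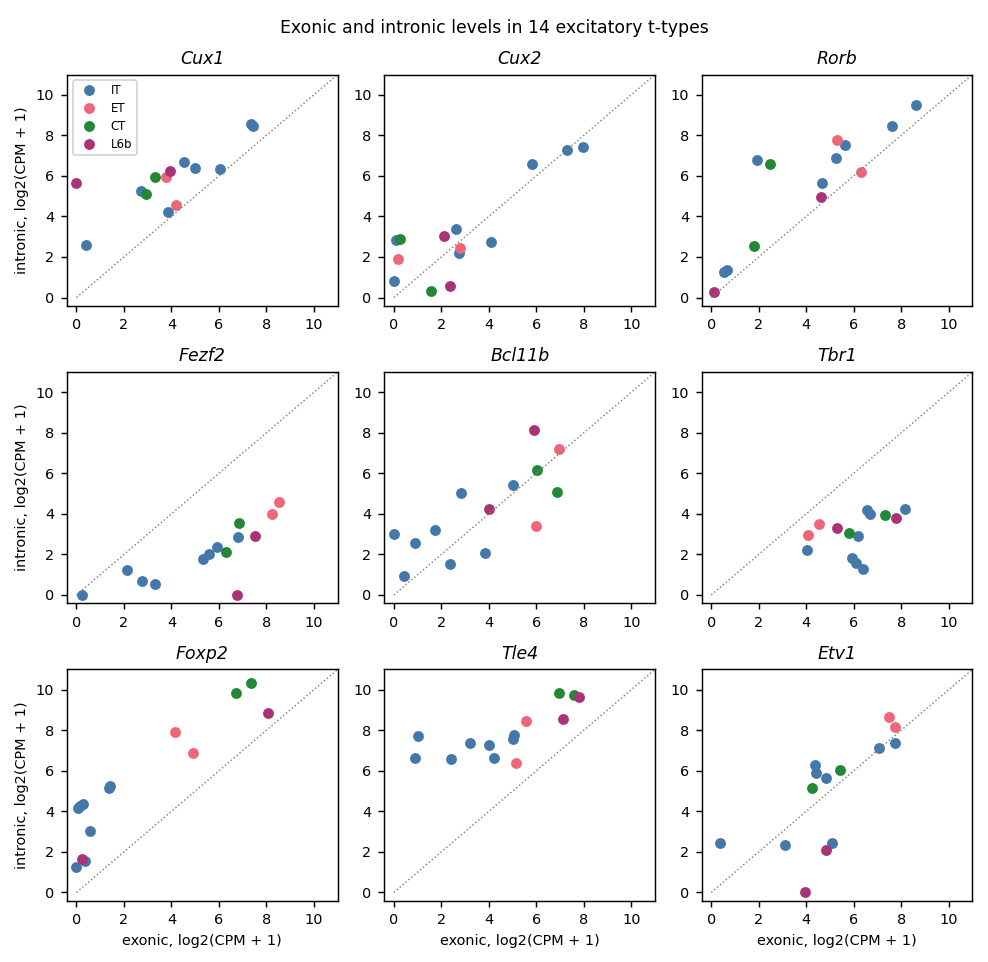
Exonic (horizontal) against intronic (vertical) log2(CPM + 1) of each gene, 1 point per excitatory t-type, coloured by family, with equal values on the dotted line. Tle4 points spread over the exonic axis from 0.868 to 224 CPM but lay between 81.8 and 920.3 CPM in introns, and Fezf2 and Tbr1 points lay mostly below the line.

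The genes with the most similar profiles over the 14 t-types were sought among 7338 genes with at least 20 CPM in their highest t-type and a read in at least 50% of its cells. The closest to each member by Pearson correlation of log2(CPM + 1) were Gtf2ird2 for Cux1 (0.877), Car4 for Cux2 (0.869), Epha6 for Rorb (0.843), Fam98a for Fezf2 (0.834), Dgat2 for Bcl11b (0.837), Ubqln1 for Tbr1 (0.921), Ccdc12 for Foxp2 (0.896), Enpp4 for Tle4 (0.898) and Rps29 for Etv1 (0.878). Syt6, a synaptotagmin used as a marker of CT cells, was second for Foxp2 (0.837), with 375 CPM in L6 CT Pou3f2 and no read in L4/5 IT_1. Lrrk2, which encodes a kinase, was second for Rorb (0.797), with 143 CPM in L4/5 IT_1. Flt3, a receptor tyrosine kinase gene, was the third for Etv1 (0.859), with 195 CPM in L5 PT_1. These are the highest of 7338 values over 14 points.

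Counts in the gene lists below are read beside the shares of all genes at least 2-fold higher and lower. These were 8.4% and 12.5% for ET against IT, 4.67% and 16.8% for CT against IT, and 14.7% and 20.4% for CT against ET. For L6b against CT they were 18.6% and 20.5%, and for L2/3 IT_3 against L6 IT 11.7% and 8.29%. For excitatory against inhibitory cells they were 9.13% and 8.1%. Paralogues of the members are next. Of 13 measured, 8 passed the filter, and between ET and IT cells 0 were at least 2-fold higher and 1 lower (Rora, a relative of Rorb, 29.8 against 120.2 CPM, -1.98), with a median of -0.69. Bcl11a, the paralogue of Bcl11b, was within 2-fold, with 80.6 against 132 CPM (-0.71). Etv5, a paralogue of Etv1, was also within 2-fold (299 against 159 CPM, 0.91), with the same sign as Etv1. Between CT and IT cells 0 were higher and 5 lower (median -1.35), among them the Groucho genes Tle3 (0.727 against 33.9 CPM, -4.34), Tle1 (5.64 against 32, -2.31) and Tle2 (17.9 against 49.1, -1.40), all opposite in sign to Tle4. Rora (24.2 against 120.2 CPM, -2.27) was lower like Rorb, and Foxp1 (74.3 against 184 CPM) was opposite in sign to Foxp2. Between CT and ET cells 1 was higher and 3 lower (median -0.81), between L6b and CT cells 0 were higher and 1 lower (median -0.11), and between L2/3 IT_3 and L6 IT cells 2 were higher and 2 lower (median -0.14). Between excitatory and inhibitory cells 3 were higher and 3 lower (median 0.42), with Foxp1 at 116 against 22.7 CPM (2.30) and Rora at 52.5 against 183 CPM (-1.79).

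Other regulators of layer and projection were listed as well, beside the same shares of all genes: 22 of 24 were measured and 17 passed the filter. Between ET and IT cells 5 were at least 2-fold higher and 0 lower (median -0.01): Crym, which encodes a thyroid hormone-binding protein (197 against 21.8 CPM, 3.12), the nuclear factor I genes Nfia (1.86) and Nfib (1.69), the LIM cofactor Ldb2 (1.66) and Sox5 (1.02). Between CT and IT cells 6 were higher and 2 lower (median 0.03), led by Zfpm2, a GATA cofactor (106 against 9.92 CPM, 3.29), and Crym (195 against 21.8 CPM, 3.10), with Pou3f2 (-2.57) and Bhlhe40 (-1.93) lower. Between excitatory and inhibitory cells 13 were higher and 0 lower (median 2.38), including the proneural factors Neurod6 (183 against 1.2 CPM, 6.39) and Neurod2 (61 against 2.2 CPM, 4.28). Between L6b and CT cells 2 were higher, among them Tshz3 (1.66), and 2 lower, Lmo4 (-1.58) and Neurod6 (-1.34), with a median of 0.01. Of all genes, 18.6% were higher and 20.5% lower in that comparison. Between CT and ET cells 1 was higher and 2 lower (median -0.17), and between L2/3 IT_3 and L6 IT cells 3 were higher and 6 lower (median -0.21).

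The cells recorded at physiological temperature comprised 43 IT and 12 ET cells with a median of 1189390 and 1241700 exonic counts, and 3 t-types had 5 or more cells at both temperatures. The values are set side by side without a test, since temperature, synaptic blockers, table, dates and animals differ together. The physiological recordings also targeted layer 5, whereas the room-temperature cells were sampled across all layers. The part of cell depth in these values was not tested. In L5 PT_1 (5 cells), Fezf2 was at 361 CPM against 304 at room temperature, Etv1 at 245 against 214, Bcl11b at 173 against 123 and Foxp2 at 29 against 29.1. In L5 IT_1 (29 cells), Etv1 was at 170.1 against 133 CPM, Fezf2 at 127 against 112 and Tbr1 at 103 against 70.6. In L4/5 IT_2 (10 cells), Rorb was at 353 against 193 CPM, Etv1 at 227 against 212 and Fezf2 at 121 against 60.1. Also in L4/5 IT_2, Bcl11b (4.32 against 0.336 CPM, log2 ratio 1.99) and Tle4 (28.6 against 8.19, 1.69) were past 2-fold. Foxp2 was lower there (0.24 against 1.56 CPM, -1.04), with 3 reads at physiological temperature. Cux1 was past 2-fold in L5 PT_1 (46.6 against 17.2 CPM, 1.39). Cux2 was the member past 2-fold in all 3 t-types. It was at 2.48 against 54.7 CPM in L4/5 IT_2 (log2 ratio -4.00) and at 0.395 against 5.91 in L5 PT_1 (-2.31). In L5 IT_1 it was at 0.29 against 16 CPM (-3.72), or 5.52 CPM at room temperature without the cell with most reads. In L4/5 IT_2 its cells ranged from 0 to 27.4 CPM with a median of 0, against a median of 17 at room temperature. The ratio of ET to IT cells was 4.58 (log2) for Bcl11b at physiological and 4.05 at room temperature, 2.74 and 3.79 for Foxp2, 1.43 and 2.70 for Fezf2, 1.11 and 1.27 for Etv1 and -1.25 and -1.87 for Tbr1. For Rorb the ratio was -1.78 at physiological and -0.81 at room temperature, and for Tle4 0.11 and 0.95. At physiological temperature, Cux1 and Cux2 were not lower in ET (0.29 and 0.70, from 21.6 and 2.06 CPM in IT cells). Of these IT cells, 29 were L5 IT_1 and 10 L4/5 IT_2. Against the 127 room-temperature IT cells of layers 4/5 and 5 alone, the ratio of room-temperature ET cells was 5.07 for Bcl11b, 3.54 for Foxp2, 2.07 for Fezf2, -3.13 for Cux2, -1.86 for Tbr1 and -1.28 for Cux1. Etv1 was then within 2-fold (0.69), whereas Rorb (-1.38) and Tle4 (1.12) were past it.

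**Figure D5:**
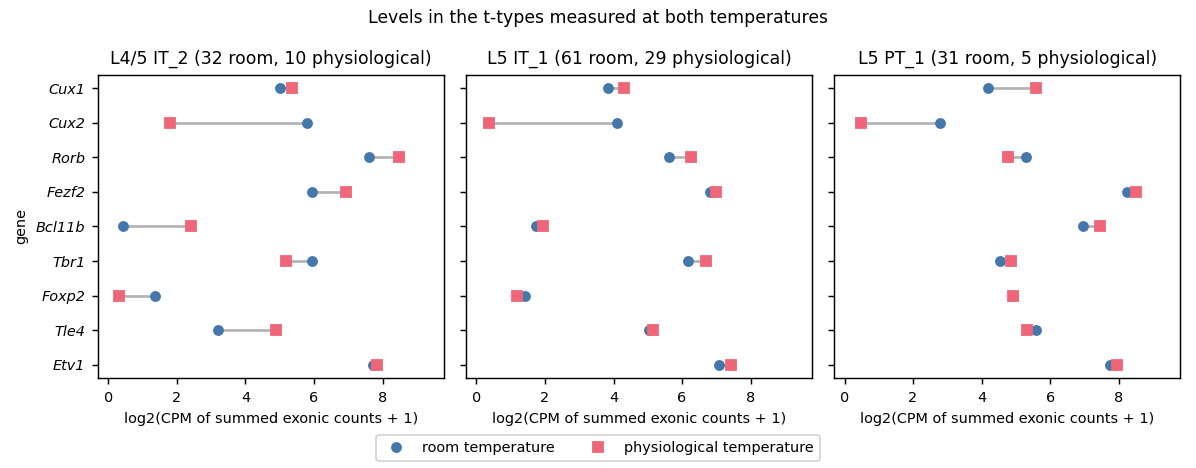
Log2(CPM of summed exonic counts + 1) of the 9 genes in the 3 t-types with 5 or more cells at both temperatures, room temperature as circles and physiological temperature as squares, joined by a line. Cux2 was at 2.48 against 54.7 CPM in L4/5 IT_2, while Etv1 was at 227 against 212 CPM there.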

How the data were processed

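The authors aligned the reads to mm10 with STAR and counted them per gene with zUMIs, and deposited exonic and intronic read counts per cell. The submitters' processing notes name STAR 2.5.4b and bcl2fastq 2.20. The libraries carried no molecular identifiers and were not stranded. Of the table columns, 9 matched no sample and were not used, and spike-in rows (4.21% of counts) were removed. Counts were summed per t-type and family and scaled to CPM with python 3.11.15, numpy 2.4.6, scipy 1.17.1 and pandas 2.3.3. Ratios used log2(CPM + 1) and a 2-fold threshold without a test, over genes with a mean of at least 5 CPM over 8 families. The ratios were also computed on simulated ET and IT cells with known fold changes. These cells shared a common expression profile otherwise and held no mixture of t-types, so the simulation does not cover that part of the real spread. For shares, each cell was thinned to 200000 counts, which left out 18 excitatory and 53 inhibitory cells. The members, gene lists and marker lists were chosen with earlier results of these data known. Named genes were the members, the 3 genes most similar to each, and up to 4 genes per list with the largest ratio. Sox5 and Foxp1 were added after their values were seen, and Bcl11a in ET against IT was also named outside this rule. Alternatives were other averages, scalings, depths, periods, pseudocounts, filters and intronic counts.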

Additional observations from a re-analysis of the deposited data

Results flagged for a closer look

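In the 6 t-types of 4 to 10 cells, 54 combinations of gene and t-type were examined for a cell far from the others. Of these, 16 held such a cell. The cut-off is set for about 1 in 20 samples of normally spread values. The present values hold many zeros, so that rate does not apply to them. Many of these genes had no read in most cells of the t-type, so that a single cell with a read stands apart.

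L6b Col6a1 replicate 1, a cell of 369182 counts, had 837 CPM of Rorb, 528 of Etv1 and 119 of Cux2. L5 IT_3 replicate 2, of 151090 counts, had 371 CPM of Fezf2, 59.6 of Tle4 and 19.9 of Etv1, while the other cells had at most 0.51 CPM of Tle4 and no read of Fezf2 or Etv1. L5 IT_2 replicate 2 had 83.7 CPM of Bcl11b and 64.4 of Cux2, with the other cells at most at 2.92 and 4.36 CPM. L6 IT_1 replicate 8 had 89 CPM of Cux2, and L6b Ror1 replicate 1 had 138 CPM of Etv1, both where no other cell had a read. L5 IT_2 replicate 6 had 16.4 CPM of Rorb, with the others at most at 2.28.

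The remaining values were all under 1 CPM and stood apart because the other cells had no read. They were 0.379 CPM of Foxp2 in L5 IT_2 replicate 1, 0.959 CPM of Cux1 in L5 IT_3 replicate 5 and 0.642 CPM of Cux2 in L5 PT_4 replicate 1. In L6b Ror1 they were 0.391 CPM of Rorb in replicate 3 and 0.963 CPM of Foxp2 in replicate 2.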

How the results depend on the processing

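Over all alternatives, 371 of 379 values of log2 ratios past 2-fold kept their sign, and 26 of these were under 2-fold. The exceptions were Tbr1 in ET against IT (0.63) and Fezf2 in L2/3 IT_3 against L6 IT (0.10) with intronic counts; Cux2 (1.36) and Rorb (2.22) in CT against ET among cells of the later period, where 3 cells are ET; and Rorb in L6b against CT, at -2.14 in cells with at least 500000 counts, -2.13 in the later period, -2.67 with intronic counts and -2.13 without L6b Col6a1 replicate 1 (1.56 without L6b Ror1 replicate 2), alternatives chosen after seeing the data. For L6b against CT the count of members past 2-fold was 1, and became 2 with means over cells or title dates, at least 500000 counts, thinning, cells of the later period, a pseudocount of 0.1 or without L6b Col6a1 replicate 1, 3 without the deepest cells, 4 with intronic counts and 0 with a pseudocount of 10. Counts of all genes past 2-fold were 2599 (ET against IT), 2678 (CT against IT), 4376 (CT against ET), 4867 (L6b against CT), 2496 (L2/3 IT_3 against L6 IT) and 2147 (excitatory against inhibitory). In that order, a pseudocount of 10 gave 1115, 1103, 2427, 2725, 1013 and 1177, and no filter gave 5220, 5284, 8126, 7667, 5372 and 3756. Cells of the later period gave 8427 for ET against IT, 8476 for CT against ET and 4273 for L2/3 IT_3 against L6 IT. Median-of-ratios scaling moved the median of all genes by 0.19 in CT against IT and by 0.13 in CT against ET. The causes of these differences were not tested. Intronic counts were not run for excitatory against inhibitory cells, and groups with under 3 cells in the earlier period gave no value. No paired analysis was possible because no result comes from a test and replicate numbers mark no shared animal; within shared title dates, the report gives counts of dates. Levels near 1 CPM rest on few reads, and sampling of single cells, which the intervals do not cover, limits t-types of 5 to 10 cells.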
